A study of Mus musculus with 6 samples.

Results

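Clustered H3K27me3 peaks in control granulosa cells are neighbouring peaks of the control list that lay no more than 5 kb apart on chromosomes 1 to 19. The members were chosen by position alone: sorted by start, a control peak was taken when its gap to the previous or the next control peak was 5000 bp or less. This gave 488 of the 15203 control peaks on these chromosomes (3.21%), and of 16345 control peaks in all. They formed 236 runs, each a candidate domain of the mark, and the other 14715 control peaks are called isolated below. ChIP-seq (chromatin immunoprecipitation with an antibody to H3K27me3, then sequencing) was done on granulosa cells of wild type C57BL/6J mice 8 to 9 weeks old, pooled from many animals and cultured in dishes. The control group held 3 samples without agent, and the DHT group held 3 samples given 25 nM dihydrotestosterone (DHT, a potent androgen that aromatase cannot turn into an estrogen) for 24 h. Each group is represented by 1 pooled peak list, so no value per sample, no depth and no replicate error stands behind any number, and no difference could be tested over samples.

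H3K27me3 is trimethylation of lysine 27 on histone H3. It is written by EZH2, the catalytic subunit of Polycomb repressive complex 2, and removed by the demethylases KDM6A and KDM6B (JMJD3). A reader subunit of the complex, EED, binds the finished mark and stimulates further methylation nearby, so the mark can spread from a nucleation site over neighbouring nucleosomes and form broad domains, best known over silent developmental genes. A broad domain of modest signal may appear in a peak list as several short calls with gaps between them, and runs of nearby peaks are one way to look for such domains. Granulosa cells surround the oocyte and respond to androgen through the androgen receptor.

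The runs were almost all made of 2 peaks. Of the 236 runs, 231 were pairs, 3 held 3 peaks, 1 held 6 peaks and 1 held 11 peaks. The median run spanned 4085 bp from the first to the last base (quartiles 2936 and 5619 bp), and control peaks covered a median of 1043 bp of it, or 26.4% of the span (quartiles 19.7 and 35.4%). Hence most of a typical run was the gap. Pairs spanned 1626 to 7015 bp, and the covered length of a pair ranged from 522 to 3875 bp. The 5 longer runs spanned 6423 to 41825 bp and control peaks covered 28.9 to 56.9% of them.

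**Figure D1:**
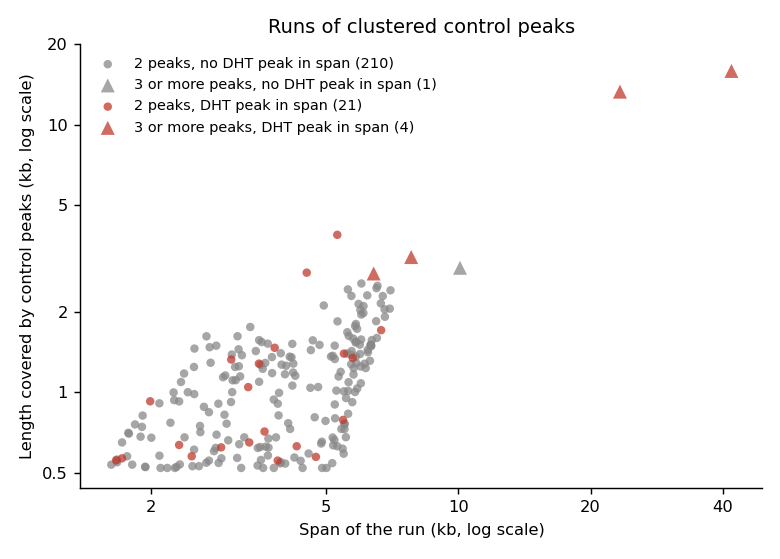
Length covered by control peaks (kb) against the span of each run (kb), both on log scales, for 236 runs; circles are runs of 2 peaks, triangles runs of 3 or more, and red marks runs with a DHT peak in the span. The longest pair spans 7015 bp, and 2 triangles at 23.3 and 41.8 kb stand apart from all other runs.

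In the list as called, neighbouring control peaks were not crowded at short range. There were 15184 gaps between consecutive control peaks, with a median of 91.8 kb, and 252 of them were 5 kb or less. The shortest was 1050 bp, so 0 gaps fell under 1 kb. Peaks were called in broad mode, and how far the caller joined nearby stretches into a single peak was not tested. The short gaps therefore describe the list and not the spacing of the mark. From 1 to 5 kb there were 46 to 79 gaps per kb (mean 63), whereas from 5 to 10 kb there were 120 to 138 per kb (mean 128.6). Gaps per kb were thus scarcer within the limit than just beyond it. The fold enrichment of a peak is its pileup over the local background of its own pool. Just inside the limit, peaks of 3.66-fold and 3.29-fold enrichment on chromosome 12 were 4997 bp apart, the second ending at 102912384, and peaks of 4.46-fold and 3.47-fold on chromosome 13 were 4988 bp apart, the first starting at 64520301. Just outside it, gaps of 5002 bp separated peaks of 3.27-fold and 4.37-fold on chromosome 4, the first starting at 18230702, and peaks of 3.37-fold and 4.21-fold on chromosome 7, the first starting at 13795578. None of these 8 peaks overlapped a DHT peak.

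**Figure D2:**
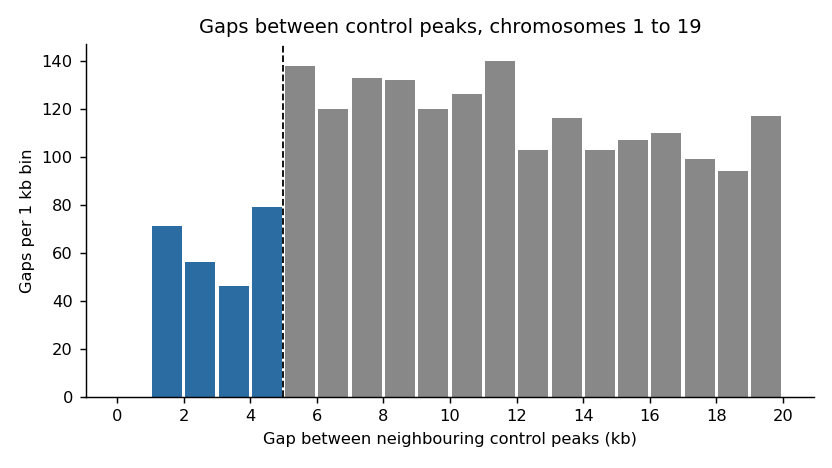
Number of gaps between neighbouring control peaks on chromosomes 1 to 19, in bins of 1 kb; blue bins are within the 5 kb limit (dashed line), grey bins beyond it. Each blue bin holds at most 79 gaps, while the grey bins from 5 to 10 kb hold 120 or more each.

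In strength and width, members had medians close to those of isolated peaks. The median fold enrichment was 3.41 in members (quartiles 3.20 and 3.79) and 3.46 in isolated peaks (quartiles 3.25 and 3.81). The median −log10 q-value, the caller's measure of confidence, was 1.88 in members and 1.83 in isolated peaks, and the median width was 413.5 and 428 bp. The strongest peaks of the list were isolated ones, and fold enrichment reached 5.46 in members and 14.9 in isolated peaks. These measures come from the same list as the choice of members and are given as a description. In both sets wider peaks had lower fold enrichment (Spearman rho of −0.48 over 488 members and −0.43 over 14715 isolated peaks, all from 1 list).

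The peaks of a pair were only loosely alike. The larger fold enrichment exceeded the smaller by a median of 1.10 times (quartiles 1.04 and 1.19), and by 1.5 times or more in 3 of 231 pairs. The quartiles of fold enrichment in the list lie close together, and over the 231 pairs the fold enrichments of the upstream and downstream peak were weakly related (Pearson r = 0.26 on the log2 scale, Spearman rho = 0.22, both peaks of a pair sharing list and local background). Widths were less alike, with a median ratio of 1.52 (upper quartile 2.54) and rho of 0.10. In 32 pairs both peaks were 300 bp or less, close to the shortest width in the list of 261 bp, and in 6 pairs both exceeded 1 kb.

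Next, DHT peaks in the runs were counted. A DHT peak, sharing at least 1 bp with the span, was present in 25 of 236 runs (10.6%, 95% Wilson interval 7.28 to 15.2%), and 211 runs held none. Over runs and isolated control peaks together, 4.17% of loci had a DHT peak in the span. Of the members themselves, 43 of 488 (8.81%, interval 6.61 to 11.7%) were overlapped by a DHT peak, compared with 598 of 14715 isolated peaks (4.06%, interval 3.76 to 4.40%). The background over all autosomal control peaks was 4.22%. A run is longer than a peak, and when each isolated peak was placed at the centre of a window of 4085 bp, the median span of a run, 4.66% held a DHT peak. Such a window matches the length of a run but has a single control peak, whereas a run has several. Intervals cover counting error only, and peaks of 1 run or 1 pool are not independent.

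Counted by peak, overlap with DHT was highest in a few places. In the 5 runs of 3 or more peaks, 19 of 26 members were overlapped by a DHT peak, and 4 of these 5 runs held one. In the 231 pairs 24 of 462 members were (5.19%, interval 3.52 to 7.61%), a share whose interval includes the 4.22% of all control peaks. Of the pairs, 21 (9.09%, interval 6.02 to 13.5%) held a DHT peak in the span and 210 did not. Counted by run, this share was above the 4.17% of all loci and the 4.66% of centred windows. A pair has 2 control peaks, though, where an isolated locus or a window has a single one. The shares by run are therefore not on equal terms, and no excess in pairs is read from them. Measured in bases, DHT peaks in the spans came to 42161 bp, against 294952 bp of control peaks in runs, and 59.3% of these DHT bases lay in the 2 largest runs. In those 2 runs DHT peaks covered 85.8% as many bases as control peaks did, and in the other 234 runs 6.46%. The share of control peak bases that DHT peaks overlay was 12.5% in members, 5.38% in members outside the 2 largest runs and 2.58% in isolated peaks. The 5.38% also leaned on a few long peaks. The longest overlaps behind it were 2966 bp on chromosome 17, 1612 and 1147 bp on chromosome 2, and 1802 and 1055 bp near the start of chromosome 11. The share without these peaks was not computed, so no excess in the other members is read from it.

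The 2 largest runs lay in the first 3.5 Mb of their chromosomes (coordinates in mm9). The run on chromosome 11 from 3045239 to 3087063 held 11 control peaks in 41825 bp. Their fold enrichment was low, from 1.61 to 2.29 with a median of 1.92, and their widths ran from 275 to 4439 bp. In the DHT list 9 peaks fell in this span, with fold enrichments of 1.72 to 2.28, and 10 of 11 control peaks were overlapped. The exception was the narrowest, 275 bp from 3051078, with 1.85-fold enrichment. Thus nearly every call of this run had a counterpart in the DHT list.

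On chromosome 9 the run from 3015099 to 3038425 held 6 control peaks in 23327 bp, and 6 DHT peaks overlapped them 1 to 1. From left to right the control fold enrichments were 1.73, 1.60, 2.02, 1.43, 1.97 and 2.55. The DHT peaks at the same places had 1.72, 1.53, 1.99, 1.49, 1.78 and 2.66. DHT peaks covered 13469 bp of the span and control peaks 13274 bp. The lowest fold enrichment of any member, 1.43, stood in this run, and so did the highest −log10 q-value of any member, 31.1. The highest −log10 q-value of a DHT peak in a run, 37.0, was here too.

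**Figure D3:**
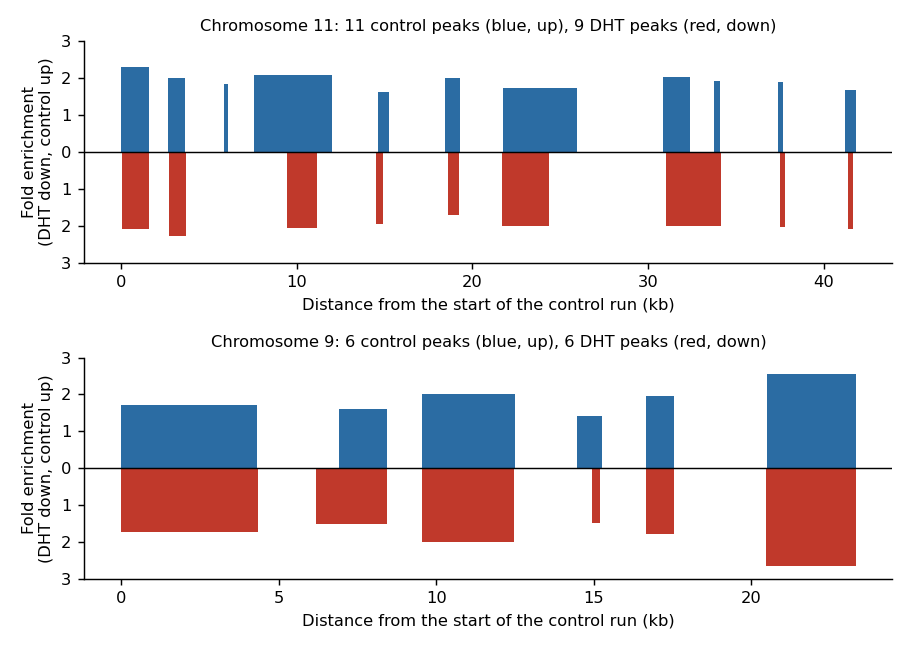
Fold enrichment of control peaks (blue, upward) and DHT peaks (red, downward) along the 2 largest runs, by distance from the start of the run (kb); each bar is 1 peak and its width is the peak's width. On chromosome 11, 9 DHT peaks lie under 10 of 11 control peaks, and on chromosome 9 each of 6 control peaks has a DHT peak beneath it.

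Beside the large run on chromosome 11 lay 2 further runs of 3 peaks, from 3031771 to 3039588 and from 3093742 to 3100164. They were separated from it by gaps of 5650 and 6678 bp, so all 17 peaks would form a single block of 68394 bp if both gaps were bridged. Of these 17 control peaks 13 were overlapped, by 12 DHT peaks, and their fold enrichment ranged from 1.61 to 3.17. In the left run 1 of 3 peaks was overlapped, and in the right run 2 of 3. In all, 5 runs with 25 members started in the first 3.5 Mb of a chromosome. These comprised 4 of the 5 runs of 3 or more peaks, each with a DHT peak, and a pair on chromosome 1 from 3492879 to 3494787 with none.

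Of the members in these 5 runs 19 of 25 were overlapped (76.0%, interval 56.6 to 88.5%). In the other 231 runs 24 of 463 members were (5.18%, interval 3.51 to 7.60%), and 21 runs (9.09%) held a DHT peak. Isolated control peaks that started in the first 3.5 Mb were overlapped in 12 of 44 cases (27.3%, interval 16.3 to 41.8%). The sequence content and mappability of these places were not tested.

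Away from chromosome starts, a single run held more than 2 peaks. It lay on chromosome 12 from 102902289 to 102912384, with peaks of 388, 1478 and 1052 bp at 3.26-, 3.66- and 3.29-fold enrichment. The −log10 q-values were 1.47, 2.01 and 1.66, near the calling limit, and no DHT peak fell in its span. The longest pairs were similar. On chromosome 12 from 63741843 to 63748857 the peaks had 3.19- and 3.13-fold enrichment, on chromosome 3 from 86556477 to 86563466 they had 3.22 and 3.35, and on chromosome 10 from 54388946 to 54395747 they had 3.34 and 3.27. A further pair on chromosome 3, from 106018415 to 106025227, had control peaks covering 28.1% of its span. None of these 4 pairs held a DHT peak.

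Among the 21 pairs with a DHT peak, 4 had both control peaks overlapped, 16 had 1 of 2, and 1 had a DHT peak in the gap alone. Both peaks were overlapped in a pair on chromosome 2 from 181662872 to 181667395, the last control peaks of that chromosome. There the control fold enrichments were 4.46 and 5.07 with −log10 q-values of 12.8 and 20.4, and the DHT peaks had 3.97 and 5.12. DHT peaks covered 98.8% as many bases as the control peaks of this pair. A second such pair, on chromosome 17 from 39980262 to 39985570, had the longest covered length of any pair, 3875 bp, and fold enrichments of 2.63 and 2.60 in control and 2.55 and 2.73 after DHT. The third lay on chromosome 17 from 27604189 to 27606665 with 4.12 and 4.22 in control, and 3.79 and 4.91 after DHT. In the fourth, on chromosome 10 from 125177397 to 125182892, the control peaks had 3.50 and 3.95 and the DHT peaks 5.03 and 3.78. In these 4 pairs both control peaks therefore shared bases with a DHT peak, over a wide range of strength. The overlap was partial in the chromosome 10 pair, with 94 of 261 bp and 434 of 1134 bp of the control peaks shared. The sequence content and mappability of these pairs were not tested.

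The gap-only case was on chromosome 15 from 43057683 to 43064362. Its control peaks of 3.48- and 3.70-fold enrichment were 4973 bp apart, and a DHT peak of 275 bp with 4.18-fold enrichment lay between them. Of all 43 DHT peaks in runs, 42 touched a control peak and this 1 did not.

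Members of high fold enrichment did not always have a DHT counterpart. The highest fold enrichment of any member, 5.46, was on chromosome 10 from 125026810 to 125027104, and no DHT peak overlapped it. Its partner of 3.22-fold enrichment, 3330 bp upstream, was the one touched by a DHT peak (3.45-fold), over 87 bp. On chromosome 1 from 140842323 to 140847812 the peaks had 5.36- and 3.61-fold enrichment, and on chromosome 13 from 75715970 to 75720210 they had 4.47 and 5.26. Neither of these pairs held a DHT peak. On the other side, the highest DHT fold enrichment in any run, 6.07, fell on a control peak of 4.50-fold enrichment on chromosome 18 that started at 61534405.

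Where DHT and control peaks met, their fold enrichments were close, each relative to its own pool. In runs of 3 or more peaks, 18 DHT peaks had a median of 2.03 (range 1.49 to 2.72), and the control peaks under them a median of 1.99. The ratio of DHT to control ran from 0.857 to 1.23 with a median of 1.02. In pairs, the 24 DHT peaks on a control peak had a median of 3.94 (range 2.55 to 6.07) against 3.72, with ratios from 0.889 to 1.58 and a median of 1.05. The DHT value was the higher in 9 of 18 and in 15 of 24 cases. A DHT peak had to pass the calling limit to be counted, so these ratios hold only for places called in both lists.

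**Figure D4:**
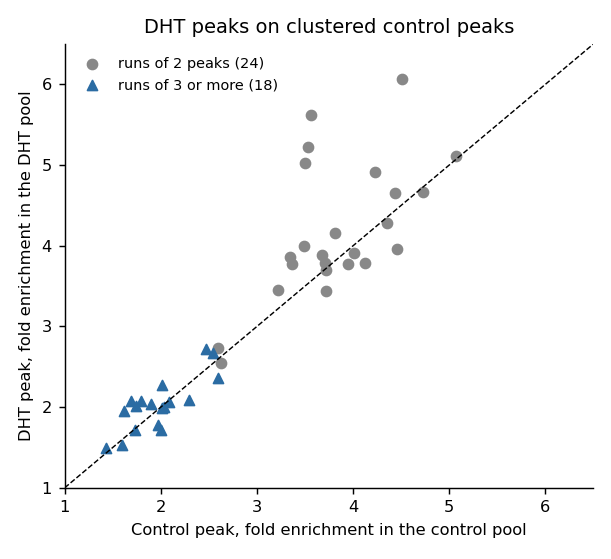
Fold enrichment of 42 DHT peaks in runs (y axis, DHT pool) against that of the control peak they overlap (x axis, control pool; the highest where a DHT peak overlaps 2), with the line of equality dashed. The 18 points of runs of 3 or more peaks sit below 2.8 on both axes, and the 24 points of pairs range up to 6.07.

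The share of members with a DHT peak rose with the −log10 q-value of the control peak, as it did among isolated peaks. Over all members fold enrichment did not follow the same order. The members in the first 3.5 Mb, with a median of 2.01-fold against 3.45-fold in the other members, were the more often overlapped. Within pairs the direction was the opposite, with a median of 3.72-fold in 24 overlapped members and 3.44-fold in all 462 members of pairs. At a −log10 q-value under 1.5, 0 of 89 members were overlapped, which allows a share of up to 3.37% when 3 counts are taken as the limit (the Wilson upper bound was 4.14%), and 1.30% of isolated peaks were. From 1.5 to 2 the shares were 3.19% of 188 members and 2.96% of isolated peaks. From 2 to 3 they were 8.39% of 143 members (interval 4.87 to 14.1%) and 4.78%. From 3 to 5 they were 25.0% of 52 members (interval 15.2 to 38.2%) and 9.24% of 1180 isolated peaks. Several members of this class were neighbours in the runs at the start of chromosomes 9 and 11. They are not independent, and the intervals cover counting error only. Restricted to pairs, 6 of 43 members of this class were overlapped (14.0%, interval 6.56 to 27.3%). At 5 or more, 12 of 16 members and 58 of 115 isolated peaks were, and among pairs 2 of 6. Within classes of −log10 q-value, the intervals of pairs and isolated peaks overlapped in 5 of 5 classes.

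**Figure D5:**
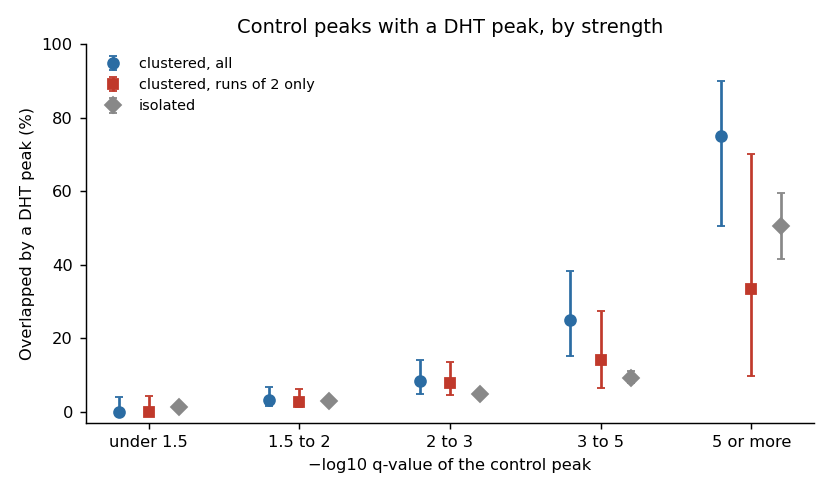
Percent of control peaks overlapped by a DHT peak, by class of −log10 q-value of the control peak, for all members (blue), members of runs of 2 (red) and isolated peaks (grey); bars are 95% Wilson intervals. All 3 sets rise from left to right, and the red intervals overlap the grey ones in each class.

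Runs without a DHT peak lay about as far from the nearest one as isolated peaks did. The nearest DHT peak was a median of 214.1 kb from the 211 such runs (quartiles 84.8 and 376.4 kb), and 214.4 kb from isolated control peaks without one. In 2 of the 211 runs (0.948%) a DHT peak lay within 5 kb of the span, compared with 1.40% of isolated peaks without a DHT peak. In 36 (17.1%, interval 12.6 to 22.7%) one lay within 50 kb, compared with 15.1% of these isolated peaks. Members of these runs had a median −log10 q-value of 1.79, whereas members of runs with a DHT peak had 2.93. Among pairs alone the medians were 1.79 and 2.54, and the fold enrichments 3.41 and 3.83.

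Runs were spread over all 19 chromosomes. Members made up from 1.64% of control peaks on chromosome 6 (16 of 978, interval 1.01 to 2.64%) to 4.89% on chromosome 10 (46 of 940, interval 3.69 to 6.47%). Chromosome 10 had the most runs, 23, of which 2 held a DHT peak. Chromosome 11 followed in share with 4.80% of its control peaks, 17 of its 31 members being in the block described above. No DHT peak fell in the 51 runs of chromosomes 8, 12, 13, 16 and 19, which are named because of that count. Over all 236 runs the share was 10.6%. Chromosomes 4, 5 and 11 had the most runs with a DHT peak, 3 each, so counts per chromosome were small throughout.

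The same 5 kb rule was finally applied to the DHT list. It took 49 of 3787 DHT peaks on these chromosomes (1.29%), in 21 runs, of which 18 were pairs and the largest held 6 peaks. Of these DHT runs, 9 (42.9%, interval 24.5 to 63.5%) shared a base with a control run. They were the chromosome 9 run, 4 in the block on chromosome 11, and the 4 pairs with both control peaks overlapped. A further 2 touched an isolated control peak, and 10 touched no control peak. Counted by peak, 43 of all 3787 DHT peaks on these chromosomes (1.14%) fell in a control run. Of the 49 peaks in DHT runs 27 overlapped a control peak (55.1%, interval 41.3 to 68.1%), compared with 613 of 3738 isolated DHT peaks (16.4%) and 16.9% of all DHT peaks on these chromosomes. These 27 include all 6 peaks of the chromosome 9 run and every peak of the 4 DHT runs in the chromosome 11 block. The share without these places was not computed. Conversely, 7 of 236 control runs shared a base with a DHT run. Gene annotation in mm9 was not used here, so no run was assigned to a gene.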

How the data were processed

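Peaks came from H3K27me3 ChIP-seq of 3 control and 3 DHT samples. The authors mapped reads to mm9 with Bowtie2 2.3.4, kept unique reads and called broad peaks with MACS2 2.1.1 at a q-value of 0.05 or less. Tools and build also stand in the submitters' processing notes. The authors provide 1 list per group. How the samples were combined, and whether input served as background, is not given in the sources used here. The study's methods state that PCR duplicates were removed, while peak names carry an automatic setting for duplicates.

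In each deposited list a peak has a score (10 times −log10 q, rounded down), a fold enrichment (a ratio to local background) and a −log10 q-value, beside p-values that were not used. Low peaks lie near the calling limit. The lists were not normalized to each other, and depth per sample is unknown.

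Runs and overlaps (1 bp or more) were computed in Python 3.11.15 with numpy 2.4.6, pandas 2.3.3 and scipy 1.17.1, and plotted with matplotlib 3.10.9. The code was checked on simulated peaks. Coordinates are mm9, counted from 1. The reference at hand was GRCm38, in which 13 control peaks pass the end of chromosome 1, so no gene or sequence was read from it, and the authors' gene symbol lists, which have no positions, were not used. The labelled cell type was not checked against marker genes for the same reason. Members, lists and measures were chosen with earlier results of these data known. Runs named in the text were the 5 with most peaks, the 5 with the largest control and the 5 with the largest DHT length, the 3 with the highest fold enrichment, the 5 with most peaks and no DHT peak, and the 2 gaps on each side of the limit. The 4 pairs with both peaks overlapped, the gap-only pair, the pair at the start of chromosome 1 and the strongest DHT peak were named after their values were seen. No test was run, and intervals are 95% Wilson intervals. Alternatives changed the gap limit, the q-value limits, list size, overlap definition, chromosomes, run size, distance to the DHT peak, and the places left out (the first 3.5 Mb of chromosomes and enrichment of 8-fold or more).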

Additional observations from a re-analysis of the deposited data

How the results depend on the processing

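No paired analysis was possible because each group has 1 pooled list, and for the same reason no replicate could be left out. Of 65 alternative values over 7 results, 26 stayed within 1.5 times (counts) or the 95% interval of the value (shares and medians). In all 11 settings the share of members with a DHT peak was above that of isolated peaks. The settings reuse the same 2 lists, so their agreement is not independent support. The setting that counted a DHT peak within 5 kb favours members by the way they were chosen. However, only 1 setting left out the first 3.5 Mb of chromosomes, together with peaks or runs of 8-fold enrichment or more. There the share was 5.18% of members (interval 3.51 to 7.60%) against 3.88% of isolated peaks, which the interval includes. The highest fold enrichment of a member was 5.46, so the 8-fold limit could remove isolated peaks only.

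With gap limits of 2, 3 and 10 kb there were 140, 246 and 1717 members in 69, 119 and 822 runs. A DHT peak overlapped 15.0, 13.4 and 5.47% of members, and at 2 and 3 kb 18.8 and 16.0% of runs held one. With runs of 3 or more peaks alone, 26 members in 5 runs had a median fold enrichment of 2.01 and width of 921.5 bp, and 73.1% of members and 80.0% of runs had a DHT peak. With control peaks at a −log10 q-value of 2 or more, 105 members in 47 runs remained, with medians of 3.89-fold and 307 bp, and 30.5% of members, 34.0% of runs and 6.59% of isolated peaks had a DHT peak. With the control list cut to the number of DHT peaks, the values were 70 members, 30 runs, 4.02-fold, 312.5 bp, 41.4%, 46.7% and 7.94%. None of the settings in this paragraph left out the first 3.5 Mb of chromosomes. In the main setting, members there had a median −log10 q-value of 3.65 against 1.84 in other members, and 76.0% against 5.18% were overlapped. These shares are therefore not read as a trait of strong clustered peaks in general. With DHT peaks at a −log10 q-value of 2 or more, 6.15% of members, 6.36% of runs and 3.15% of isolated peaks had one, and when a DHT peak had to cover a share of 0.5 of the control peak, 6.15% of members and 2.80% of isolated peaks. Counting a DHT peak within 5 kb on either side gave 13.5% of members and 5.41% of isolated peaks. Each member has by choice a neighbour within 5 kb, so a DHT peak on a member can count for its neighbour too. Isolated peaks have no such neighbour, and these 2 shares are not on equal terms. Depth per sample is unknown, which limits every comparison of the lists.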

Other observations

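Chromosome X was outside the choice of members. By the same rule, 28 of its 1141 control peaks (2.45%) formed 14 runs. The largest number of peaks in a run there was 2 and the longest span 6804 bp, and 2 of the 14 runs held a DHT peak.

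The DHT list held 10 runs that touched no control peak, each a pair. Among them the pair on chromosome 9 from 64266826 to 64271114 had the highest fold enrichment, with peaks of 4.02 and 6.43. On chromosome 5 from 120187897 to 120193402 the peaks had 3.75 and 4.95. These pairs were named after their values were seen, and no difference between the groups was tested at them.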
